A study of Mus musculus with 11 samples.

Results

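The TNF receptor superfamily genes of liver CD4 T cells were followed across RNA-seq libraries of mice with and without the autophagy gene Atg5 in their T lymphocytes. The 10 genes Tnfrsf1b, Tnfrsf1a, Tnfrsf4, Tnfrsf9, Tnfrsf18, Tnfrsf8, Tnfrsf25, Tnfrsf14, Cd27 and Fas were taken by symbol from the 56748 genes of the deposited count table, and all 10 were found and had enough reads to be tested. Tnfrsf1b was chosen by its expression values in these 11 libraries, which separated the genotypes, so its difference is given as a description without a test. The other 9 were listed as further receptors of the family on CD4 T cells.

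The study compared 6 libraries of genotype ATG5TLymph-/- (Atg5-deficient), in which Atg5 is deleted in T lymphocytes, with 5 libraries labelled wildtype (wild-type), whose genotype the series text gives as ATG5fl/fl, the loxP-flanked gene without deletion. Mice of both genotypes received carbon tetrachloride (CCl4), a hepatotoxin that causes liver fibrosis, for 5 weeks, so no group without liver injury enters the comparison. No source used here gives the Cre driver, the deleted part of Atg5 or the age of the mice. The series describes CD4 T cells isolated on a cell sorter, whereas the extraction protocol in the labels describes sections of fixed, paraffin-embedded blocks, and the labels do not settle which applies.

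TNF receptor superfamily members are transmembrane receptors with cysteine-rich extracellular domains that bind trimeric ligands of the TNF family. Members without a death domain recruit TRAF adaptors and activate NF-kB, which in T cells supports survival, proliferation and cytokine production, while death domain members can also start caspase-dependent killing. On CD4 T cells most of the costimulatory members are induced by antigen, and regulatory T cells, which depend on the transcription factor Foxp3, are known to carry high levels of several of them.

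Of the receptor genes 7 lie on mouse chromosome 4 between positions 145213463 and 156028895 (GRCm38). The bases upstream of the start sites are printed for the members with the largest separation or a passed test. They run 5′ to 3′ on the strand of the gene, from RefSeq (GRCm38.p6). Each stretch lies within the 250 bases before the annotated start and was shortened where an annotated exon covers it. The Tnfrsf18 stretch ends 159 bases before its start. For Tnfrsf25 only the first of its 2 windows is printed. All 10 genes matched a RefSeq start, with 12 windows in total.

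Tnfrsf1b promoter, chr4:145246871-145247120, minus strand: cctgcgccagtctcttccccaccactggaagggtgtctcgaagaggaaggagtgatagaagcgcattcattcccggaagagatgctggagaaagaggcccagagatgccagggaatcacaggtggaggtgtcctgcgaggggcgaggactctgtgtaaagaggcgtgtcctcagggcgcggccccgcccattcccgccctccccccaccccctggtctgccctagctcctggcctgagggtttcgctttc
Tnfrsf4 promoter, chr4:156013611-156013694, plus strand: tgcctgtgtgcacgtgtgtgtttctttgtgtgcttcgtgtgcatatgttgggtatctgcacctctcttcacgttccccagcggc
Tnfrsf18 promoter, chr4:156026072-156026163, plus strand: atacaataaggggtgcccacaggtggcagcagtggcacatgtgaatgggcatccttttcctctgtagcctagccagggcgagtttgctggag
Tnfrsf25 promoter, chr4:152115684-152115933, plus strand: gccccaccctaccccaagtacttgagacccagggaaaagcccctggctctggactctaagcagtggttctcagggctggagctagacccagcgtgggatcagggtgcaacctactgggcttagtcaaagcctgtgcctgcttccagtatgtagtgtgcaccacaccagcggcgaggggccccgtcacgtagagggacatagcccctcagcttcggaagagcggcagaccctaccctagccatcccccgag

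The windows were searched on both strands for the NF-kB consensus and for TGANTCA, the AP-1 motif, where N is any base. None of the 4 members above held a match to either motif in any of its windows. The NF-kB consensus was found in 2 of the 10 genes, Tnfrsf9 and Tnfrsf8, against 3.90% of 32851 RefSeq windows of 250 bases. TGANTCA was found in 3, Tnfrsf9, Tnfrsf8 and Fas, against 6.75% of the windows. These counts are of genes and the percentages are of windows, so they are not like for like. The 10 genes had 12 windows, with 2 each for Tnfrsf9 and Tnfrsf25. The matched sites are shown with the matched bases in capitals, because they are the only matches among the 10 genes.

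Tnfrsf9, NF-kB, 2 overlapping matches, chr4:150927948-150927977, plus strand: gagcagctGGGGATTTCCCaggaggccctg
Tnfrsf9, AP-1, chr4:150927976-150927998, plus strand: tgctcagtTGAGTCAcaggtcct
Tnfrsf8, NF-kB, chr4:145315311-145315340, minus strand: aaaacgcaGGGGAGCCCCctgcgtgcgtgc
Tnfrsf8, AP-1, chr4:145315275-145315304, minus strand: gctagcccTGAGTCAtctctgcacgtggtg
Fas, AP-1, chr19:34290440-34290469, plus strand: tgcagtggTGAGTCAgtgggtttccccggg

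The Tnfrsf9 matches precede the second of its 2 RefSeq starts and lie inside an exon of another annotated transcript of the gene. A match describes letters in the window and does not show that a factor binds there.

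Libraries held 30699408 to 47564440 counted reads. Expression is given as CPM, the reads of a gene relative to the TMM-scaled size of the library, which compares 1 gene between libraries. Genotype was tested with edgeR over 17987 genes with Benjamini-Hochberg adjustment, and a gene passed at an adjusted p under 0.05. Whether each library is a separate mouse is not stated, so a p-value here reflects the spread between these samples, which may be technical. Sums of cell type markers are relative to total counts, without TMM factors. CD4 T cell markers summed to 2083 to 3275 CPM, above those of hepatocytes (38.0 to 1000 CPM), endothelial cells (120 to 223 CPM), NK cells (11.1 to 91.8 CPM), B cells (6.53 to 24.9 CPM), macrophages (5.12 to 19.0 CPM), dendritic cells (2.04 to 9.74 CPM), CD8 T cells (4.10 to 6.55 CPM), stellate cells (1.14 to 3.44 CPM) and neutrophils (0 to 0.603 CPM). The endothelial sum was mostly Pecam1 (118 to 211 CPM, TMM-scaled), while Cdh5, Stab2, Kdr and Clec4g each had at most 1.57 CPM. The highest NK cell sum, in Atg5-deficient replicate 4, was mostly Eomes (83.1 CPM, TMM-scaled). Atg5 reads stood at 15.2 to 22.5 CPM in the Atg5-deficient group and 13.4 to 21.1 CPM in the wild-type group. Since reads outside the deleted part count too, the Atg5 reads do not check the genotype labels. Cells of bulk samples were not resolved, and fewer cells of a type and less RNA per cell cannot be told apart.

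Of the 9 receptor genes that could be tested, 3 were higher in Atg5-deficient libraries, 0 were lower and 6 did not pass (edgeR; DESeq2 and limma-voom also called 3, and 3 of the 9 had an unadjusted p under 0.05). The 3 were Tnfrsf4, which encodes OX40, Tnfrsf18, which encodes GITR, and Tnfrsf25, which encodes DR3. Over all tested genes 6.84% passed with edgeR, 4.43% higher and 2.41% lower. Of the same 17987 genes DESeq2 called 2333 and limma-voom 3426, and 4205 had an unadjusted edgeR p under 0.05. The median log2 fold change of the 9 was 0.44, where that of all tested genes was 0.00 (log2 fold changes here are Atg5-deficient minus wild-type). Tnfrsf1b was the only one of the 10 whose groups did not overlap, a separation for which it was chosen. Among all tested genes 4.86% had groups without overlap, and 2.78% had the Atg5-deficient group above.

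**Figure D1:**
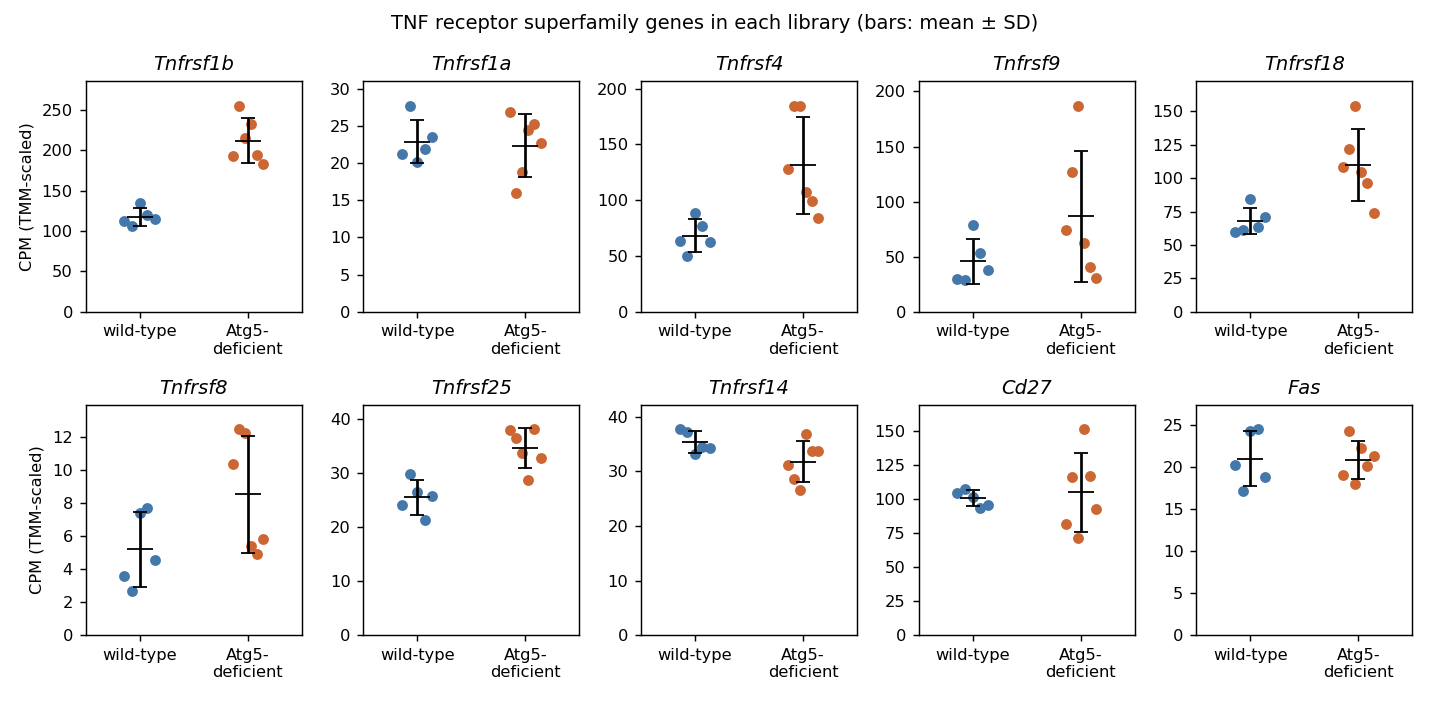
Each panel plots 1 receptor gene, with CPM on the y axis (from 0) and 1 point per library (5 wild-type, 6 Atg5-deficient), and the bars give the mean ± SD. Only Tnfrsf1b has all Atg5-deficient points (182 to 255 CPM) above all wild-type points (106 to 134 CPM).

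The receptors for TNF itself came first. Tnfrsf1b (ENSMUSG00000028599, chromosome 4, 145213463 to 145246870, minus strand) encodes TNFR2, which lacks a death domain and signals through TRAF2. In the Atg5-deficient libraries it ran from 182 to 255 CPM with a median of 204. The wild-type libraries, replicates 1 to 5, held 112, 106, 134, 120 and 115 CPM. The lowest Atg5-deficient library thus lay above the highest wild-type library. The means were 212 ± 27.8 CPM (SD, n = 6) and 117 ± 10.8 CPM (SD, n = 5), a log2 fold change of 0.85, or 1.81-fold. Leaving out each library in turn moved the log2 fold change between 0.79 and 0.91. Tnfrsf1b was chosen for its separation in these same libraries, so this range is a description only.

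Tnfrsf1a (ENSMUSG00000030341, chromosome 6, 125349362 to 125362484, plus strand) encodes TNFR1, the death domain receptor that shares the ligands of TNFR2. It ran from 15.9 to 26.9 CPM in Atg5-deficient libraries (median 23.7). Wild-type libraries held 21.2, 27.7, 20.2, 21.9 and 23.5 CPM. Atg5-deficient replicates 2 and 3 lay below every wild-type library and the other 4 among them, with a log2 fold change of -0.03 (SE 0.14, 95% interval -0.33 to 0.26, edgeR adjusted p = 0.913). Set against each other per kilobase of exon, Tnfrsf1b exceeded Tnfrsf1a 2.59- to 4.51-fold in wild-type and 4.85- to 10.9-fold in Atg5-deficient libraries, without overlap. That ratio contains the gene chosen for its separation and was not tested. Its highest value belonged to Atg5-deficient replicate 2, which had both the most Tnfrsf1b and the least Tnfrsf1a of its group.

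Among the costimulatory receptors without a death domain, Tnfrsf4 and Tnfrsf18 were higher in Atg5-deficient libraries, while Tnfrsf9 and Tnfrsf8 had positive log2 fold changes that did not pass. Tnfrsf4 (ENSMUSG00000029075, chromosome 4, 156013843 to 156016612, plus strand) encodes OX40, which prolongs the survival of activated CD4 T cells. It ran from 84.0 to 185 CPM in Atg5-deficient libraries, with a median of 118. In wild-type replicates 1 to 5 it stood at 63.1, 50.0, 88.6, 77.2 and 62.5 CPM. Atg5-deficient replicate 6 fell below wild-type replicate 3, and the remaining 5 of the Atg5-deficient group exceeded every wild-type one. The log2 fold change was 0.94 (SE 0.22, 95% interval 0.46 to 1.43, edgeR adjusted p = 0.0288), from means of 68.3 ± 14.9 (SD, n = 5) and 131 ± 43.5 CPM (SD, n = 6).

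Tnfrsf18 (ENSMUSG00000041954, chromosome 4, 156026164 to 156028895, plus strand) encodes GITR, which is present on regulatory T cells and induced on activated ones. Atg5-deficient libraries ran from 73.7 to 154 CPM with a median of 106. Wild-type libraries held 59.4, 61.4, 84.2, 63.6 and 71.0 CPM. As for Tnfrsf4, the overlap came from Atg5-deficient replicate 6 and wild-type replicate 3 alone. On the log2 scale the difference was 0.69 (SE 0.16, 95% interval 0.35 to 1.03, edgeR adjusted p = 0.0208), from 67.9 ± 10.1 (SD, n = 5) to 110 ± 26.9 CPM (SD, n = 6). The gene shares 414 exonic bases with the antisense gene Gm16008, whose reads amounted to 4.22% of its count. No source used here gives the strand setting of the counting.

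The calls of Tnfrsf4 and Tnfrsf18 rested on narrow margins. Tnfrsf4 did not pass without Atg5-deficient replicate 1 or 2 or without wild-type replicate 1, 2, 4 or 5 (edgeR adjusted p 0.0529 to 0.0678, log2 fold change 0.82 to 0.99), nor without a filter on low counts (adjusted p = 0.0833). Tnfrsf18 did not pass without Atg5-deficient replicate 2 or wild-type replicate 1 or 4 (adjusted p 0.0503 to 0.0553, log2 fold change 0.65 to 0.67).

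Tnfrsf9 (ENSMUSG00000028965, chromosome 4, 150914562 to 150946102, plus strand) encodes 4-1BB, a receptor induced by antigen. It had the widest spread of the 10, with a coefficient of variation of 68.5% in Atg5-deficient and 45.2% in wild-type libraries. Atg5-deficient libraries ran from 30.6 to 187 CPM with a median of 68.3. Wild-type libraries held 30.1, 28.8, 78.3, 53.5 and 38.2 CPM. Replicates 2 and 3 of the Atg5-deficient group, at 127 and 187 CPM, lay above all wild-type libraries, and the other 4 lay among them. The log2 fold change was 0.92 (SE 0.49, 95% interval -0.17 to 2.01, edgeR adjusted p = 0.295), and it was 0.54 without Atg5-deficient replicate 3.

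Tnfrsf8 (ENSMUSG00000028602, chromosome 4, 145267137 to 145315164, minus strand) encodes CD30, a receptor of activated lymphocytes, and had the lowest counts of the 10, with 84 to 493 reads per library. It ran from 4.94 to 12.5 CPM in Atg5-deficient libraries (median 8.10). Wild-type libraries held 3.61, 2.71, 7.38, 7.73 and 4.59 CPM. Atg5-deficient replicates 1, 2 and 3 lay above all wild-type libraries at 10.4, 12.5 and 12.3 CPM, and replicates 4, 5 and 6 lay among them. The log2 fold change of 0.71 (SE 0.33, 95% interval 0.00 to 1.43) did not pass (edgeR adjusted p = 0.214).

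**Figure D2:**
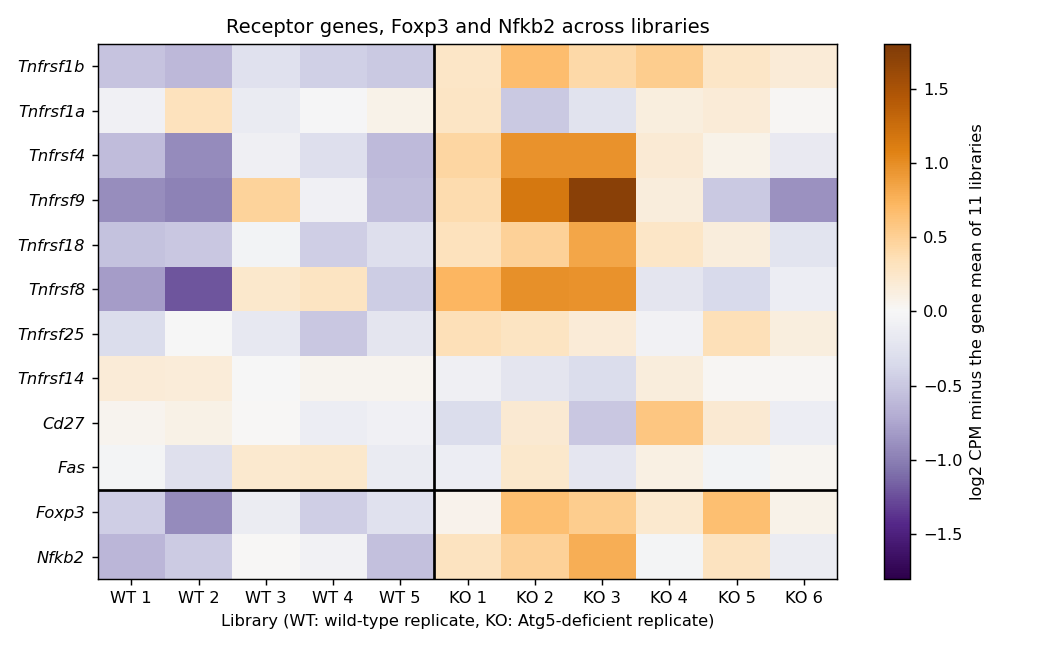
Rows are the 10 receptor genes with Foxp3 and Nfkb2 below the line, columns are the 11 libraries, and colour gives log2 CPM minus the mean of the gene over all libraries. Tnfrsf4, Tnfrsf9, Tnfrsf18 and Tnfrsf8 have their highest values (orange) in Atg5-deficient replicates 2 and 3 (KO 2 and KO 3), where Tnfrsf9 reaches 1.73, while Tnfrsf14, Cd27 and Fas show no such pattern.

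The same libraries were thus high for several of these receptors. Atg5-deficient replicates 2 and 3 were the highest 2 of their group for Tnfrsf4, Tnfrsf9, Tnfrsf18 and Tnfrsf8, and replicate 6 was the lowest for Tnfrsf1b, Tnfrsf4, Tnfrsf9 and Tnfrsf18. Wild-type replicate 3 was the highest of its group for Tnfrsf1b, Tnfrsf4, Tnfrsf9 and Tnfrsf18. Cd27, Tnfrsf14 and Fas were lowest of their group in Atg5-deficient replicate 3. Hepatocyte markers were also high in these libraries, with sums of 911, 1000 and 704 CPM in Atg5-deficient replicates 1, 2 and 3 against 54.8 to 232 CPM in replicates 4 to 6. Among wild-type libraries replicate 3 had the highest sum, 566 CPM. Wild-type replicate 2 came next at 370 CPM, but it was the lowest of its group for Tnfrsf1b, Tnfrsf4, Tnfrsf9 and Tnfrsf8. Tnfrsf4, Tnfrsf9, Tnfrsf18 and Tnfrsf8 had their 3 highest Atg5-deficient values in replicates 1 to 3, and the part of the hepatocyte RNA in this was not tested. The heat map of log2 CPM by library shows these differences within a genotype beside those between genotypes.

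The death domain receptors besides TNFR1 were Tnfrsf25 and Fas. Tnfrsf25 (ENSMUSG00000024793, chromosome 4, 152115934 to 152120119, plus strand) encodes DR3, the receptor of the ligand TL1A, which costimulates T cells. It ran from 28.7 to 38.0 CPM in Atg5-deficient libraries (median 35.1). Wild-type libraries held 24.0, 29.9, 26.6, 21.3 and 25.8 CPM. Only Atg5-deficient replicate 4 and wild-type replicate 2 crossed. The difference on the log2 scale was 0.44 (SE 0.10, 95% interval 0.22 to 0.66, edgeR adjusted p = 0.0243), from 25.5 ± 3.18 (SD, n = 5) to 34.6 ± 3.61 CPM (SD, n = 6). It did not pass without Atg5-deficient replicate 1 or 2 or wild-type replicate 1, 4 or 5 (adjusted p 0.0540 to 0.0631, log2 fold change 0.38 to 0.45). The highest 2 Atg5-deficient libraries for Tnfrsf25 were replicates 5 and 1 (38.0 and 37.84 CPM), where those of Tnfrsf4, Tnfrsf9, Tnfrsf18 and Tnfrsf8 were replicates 2 and 3. Replicates 2 and 3 (36.49 and 33.65 CPM) still lay above replicates 4 and 6 (28.65 and 32.8 CPM).

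Fas (ENSMUSG00000024778, chromosome 19, 34290666 to 34327772, plus strand) encodes the receptor through which Fas ligand kills activated T cells. It ran from 18.1 to 24.4 CPM in Atg5-deficient libraries (median 20.7), and wild-type libraries held 20.3, 17.2, 24.3, 24.5 and 18.9 CPM. The groups overlapped, with a log2 fold change of -0.01 (SE 0.12, 95% interval -0.26 to 0.24, edgeR adjusted p = 0.971).

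The last pair is Cd27 and Tnfrsf14, which are already present on resting T cells. Cd27 (ENSMUSG00000030336, chromosome 6, 125232622 to 125237010, minus strand) encodes the receptor of CD70. It ran from 71.5 to 151 CPM in Atg5-deficient libraries (median 105), around the narrow wild-type range of 93.6 to 108 CPM, with 3 Atg5-deficient libraries above and 3 below all wild-type ones. Its log2 fold change was 0.06 (SE 0.16, 95% interval -0.28 to 0.40, edgeR adjusted p = 0.857), and -0.01 under upper-quartile scaling. Exons of Cd27 share 129 bases with Mir8113 on the same strand, which had 7.17% of the Cd27 count. Tnfrsf14 (ENSMUSG00000042333, chromosome 4, 154921933 to 154928563, minus strand) encodes HVEM, which binds LIGHT and the inhibitory receptor BTLA. It ran from 26.6 to 36.8 CPM (median 32.4) against 33.2 to 37.7 CPM in wild-type libraries. Its log2 fold change was -0.15 (SE 0.09, 95% interval -0.35 to 0.05, edgeR adjusted p = 0.348).

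**Figure D3:**
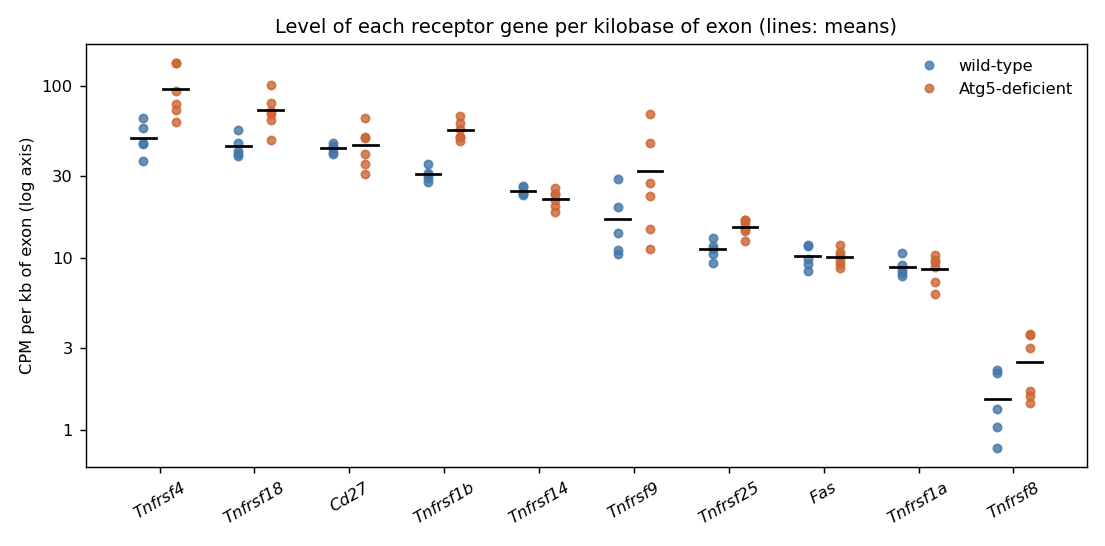
CPM per kilobase of annotated exon (log axis) is plotted for each receptor gene, with 1 point per library, lines at the group means and genes in the order of their wild-type mean. Tnfrsf4 and Tnfrsf18 head both groups, and Tnfrsf1b stands at 30.7 in wild-type and 55.5 in Atg5-deficient libraries.

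Levels of different genes were compared per kilobase of exon. In wild-type libraries the order was Tnfrsf4 (50.0 CPM per kb), Tnfrsf18 (44.6), Cd27 (43.3), Tnfrsf1b (30.7), Tnfrsf14 (24.6), Tnfrsf9 (16.8), Tnfrsf25 (11.2), Fas (10.2), Tnfrsf1a (8.84) and Tnfrsf8 (1.5). Tnfrsf4, Tnfrsf18 and Cd27 overlapped as neighbours in that order, as did the genes from Tnfrsf14 to Tnfrsf1a, while the steps from Cd27 to Tnfrsf1b, from Tnfrsf1b to Tnfrsf14 and from Tnfrsf1a to Tnfrsf8 were without overlap. In Atg5-deficient libraries Tnfrsf4 (96.2 CPM per kb) and Tnfrsf18 (72.0) led again, and Tnfrsf1b (55.5) stood before Cd27 (45.1), their ranges overlapping. Tnfrsf9 (31.9) likewise stood before Tnfrsf14 (22.1), with a gap only between Tnfrsf14 and Tnfrsf25 (15.2), between Tnfrsf25 and Fas (10.1) and between Tnfrsf1a (8.64) and Tnfrsf8 (2.47). Together the 10 genes summed to 359 ± 69.5 CPM per kb (SD, n = 6) in the Atg5-deficient group and 242 ± 25.5 (SD, n = 5) in the wild-type group. The ranges of the sum overlapped, at 268 to 445 against 220 to 284 CPM per kb. The sum includes Tnfrsf1b, which was chosen for its separation, and was not tested. Tnfrsf1b made up 15.7 ± 1.81% of that sum against 12.7 ± 0.241%, with overlapping ranges.

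Markers of other T cell states were summed beside these receptors. The 7 regulatory T cell markers summed to 862 to 1404 CPM in Atg5-deficient and 365 to 740 CPM in wild-type libraries (exact permutation p = 0.00649 over 462 splits, two-sided, adjusted p = 0.0552), and none of them was at 0. Of the 7, Foxp3 and Ikzf2 were higher by edgeR's test, and Gpr83 had a negative log2 fold change that did not pass (-0.73, edgeR adjusted p = 0.0573). The 7 markers of naive and central memory T cells summed to 2067 to 3714 against 3377 to 4914 CPM (exact permutation p = 0.0152, adjusted p = 0.0861), and 5 of the 7 were lower. Cycling-cell markers summed to 237 to 671 against 156 to 260 CPM (exact permutation p = 0.00649, adjusted p = 0.0552), and 6 of 7 were higher. The sum of 237 CPM, inside the wild-type range, belonged to Atg5-deficient replicate 3. By edgeR's test 4.43% of all tested genes were higher and 2.41% lower. Relative to total counts none of the 3 marker sums passed after adjustment over 17 sums and library properties. On the TMM scale, an alternative chosen after seeing the data, all 3 passed (exact permutation, adjusted p = 0.0368, 0.0368 and 0.0491), and the naive sums no longer overlapped, at 2027 to 3558 against 3636 to 4793 CPM. The smallest p that this design allows is 0.00216. The part of these markers in the differences of the receptors was not tested.

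Receptor levels were also set against Foxp3 within each library, as a description. Foxp3 stood at 212 to 321 CPM in Atg5-deficient and 108 to 185 CPM in wild-type libraries. Per CPM of Foxp3, Tnfrsf1b stood at 0.813 ± 0.135 (SD, n = 6) against 0.787 ± 0.117 (SD, n = 5) in wild-type libraries, with overlapping ranges. Tnfrsf4 was at 0.494 against 0.450, Tnfrsf18 at 0.417 against 0.453, Tnfrsf9 at 0.319 against 0.295 and Tnfrsf8 at 0.0325 against 0.0336, all with overlap. On this scale Tnfrsf14 (0.124 against 0.242) and Fas (0.0808 against 0.141) were lower in Atg5-deficient libraries without overlap, and Cd27, Tnfrsf1a and Tnfrsf25 had lower means with overlap. These ratios fall wherever Foxp3 rises more than the receptor. Foxp3 itself had groups without overlap, whereas Tnfrsf14 and Fas overlapped in CPM. How many of all tested genes separate on this scale was not counted. Exons of Foxp3 overlap those of Ccdc22, Flicr, Ppp1r3f and Gm36995.

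**Figure D4:**
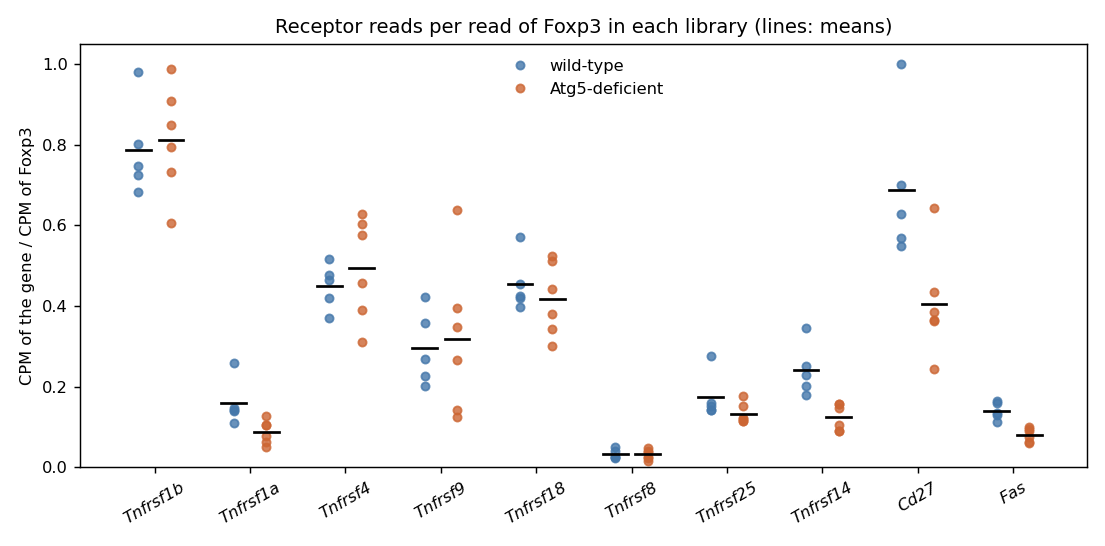
For each receptor gene, the ratio of its CPM to the CPM of Foxp3 is plotted per library, with lines at the group means. Tnfrsf1b, Tnfrsf4, Tnfrsf9, Tnfrsf18 and Tnfrsf8 overlap between the groups, and Tnfrsf14 and Fas lie lower in every Atg5-deficient library. Foxp3, the divisor, is itself higher in every Atg5-deficient library.

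With the mean log2 CPM of the 7 regulatory T cell markers as a covariate, 0 of the 9 tested receptors passed (edgeR), and 26 genes passed in all. The log2 fold change was then 0.30 for Tnfrsf4 (adjusted p = 0.487), 0.30 for Tnfrsf18 (0.454), 0.48 for Tnfrsf25 (0.202) and 0.63 for Tnfrsf1b. With the naive markers as covariate 0 of the 9 and 1 gene in all passed, and the log2 fold change was 0.38 for Tnfrsf4, 0.22 for Tnfrsf18, 0.48 for Tnfrsf25 and 0.61 for Tnfrsf1b. Tnfrsf9 turned to -0.28 and -0.66 in these fits, neither past the threshold. The mean of the regulatory markers ran from 5.89 to 6.68 against 5.24 to 6.07, with overlap (log2 CPM). That of the naive markers ran from 7.30 to 8.24 against 8.27 to 8.73, without overlap. A fit with the naive markers therefore cannot tell their difference from that of genotype.

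The ligands were measured in the same libraries. Of 18 ligand genes of the family 11 had enough reads to be tested, and 3 were higher and 0 lower (edgeR, where DESeq2 and limma-voom each called 4), with a median log2 fold change of 0.57. With edgeR that was 27.3% of the tested ligands, where 6.84% of all tested genes passed. DESeq2 called 2333 and limma-voom 3426 of all 17987 tested genes. Tnf, the ligand of both TNF receptors, ran from 26.9 to 38.8 CPM in Atg5-deficient and 17.2 to 22.0 CPM in wild-type libraries, without overlap (log2 fold change 0.57, SE 0.11, edgeR adjusted p = 0.00996), and passed with each library left out. Tnfsf10, which encodes TRAIL, was higher by 0.62 (SE 0.17, edgeR adjusted p = 0.0453), and Tnfsf11, which encodes RANKL, by 0.62 (SE 0.16, adjusted p = 0.0347). Tnfsf10 passed in 2 and Tnfsf11 in 3 of the 11 fits that left out a library, and Tnfsf10 did not pass under upper-quartile scaling (adjusted p = 0.0578).

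The remaining ligands of the described receptors did not pass. Tnfsf9, the ligand of 4-1BB, ran from 3.63 to 6.07 CPM against 0.968 to 3.24 CPM, without overlap, with a log2 fold change of 0.81 (SE 0.28, edgeR adjusted p = 0.0921). It passed with DESeq2 (adjusted p = 0.0333) and limma-voom (0.0298). Its exons share 192 bases with the opposite-strand gene Gm11110, which had 180% of its count. Fasl (0.58, edgeR adjusted p = 0.365), Tnfsf14, which encodes LIGHT (0.48, adjusted p = 0.318), Lta, which encodes lymphotoxin alpha (0.10, adjusted p = 0.883), and Tnfsf8, the CD30 ligand (-0.01, adjusted p = 0.962), overlapped between groups. The genes of the OX40, CD27, DR3 and GITR ligands, Tnfsf4, Cd70, Tnfsf15 and Tnfsf18, had too few reads to test. Tnfsf4 had 4 to 68 reads per library, Cd70 0 to 10, Tnfsf15 0 to 26 and Tnfsf18 0 to 2.

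**Figure D5:**
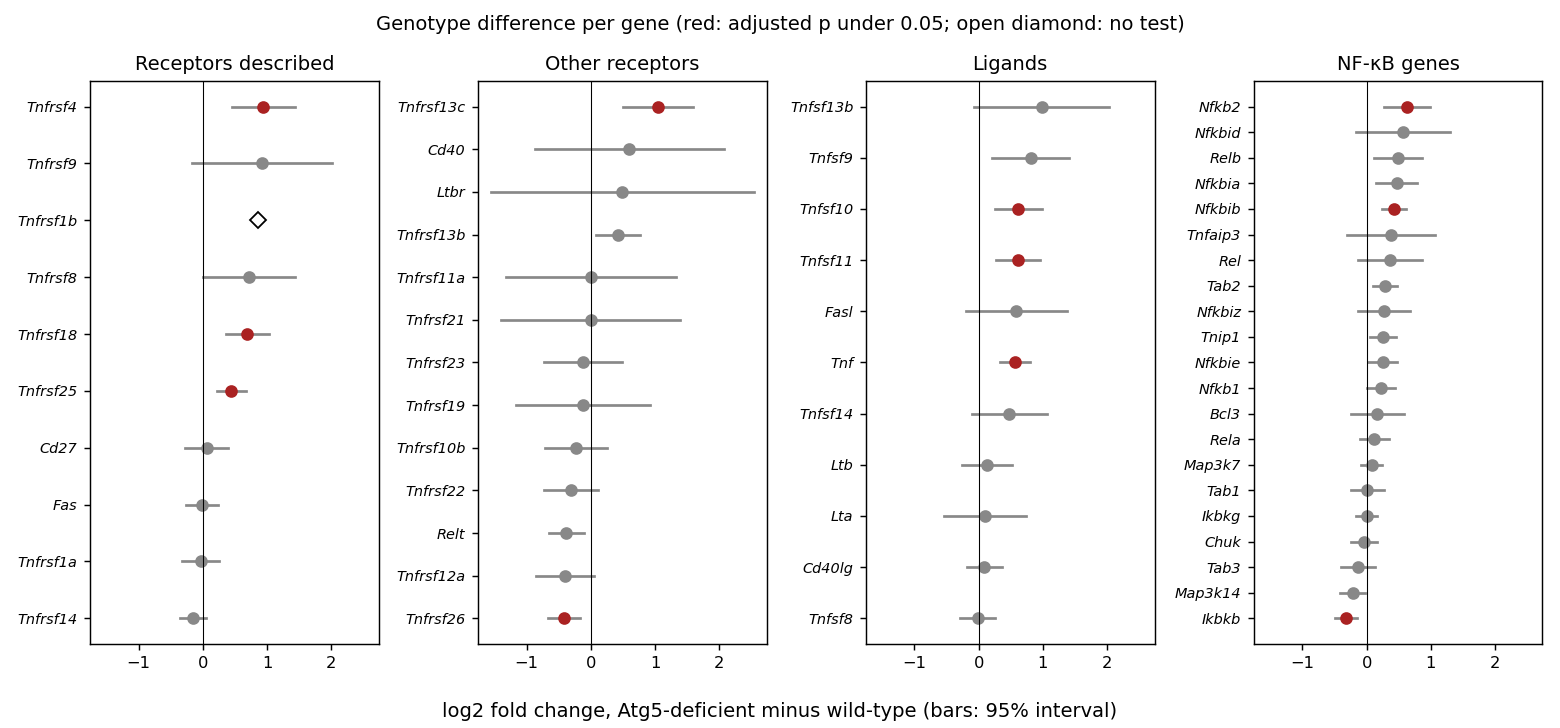
The log2 fold change (Atg5-deficient minus wild-type) is plotted for the receptors described, the other tested receptors of the superfamily, the tested ligands and the NF-kB genes, with 95% intervals as bars. Red points passed edgeR's test (3 receptors described, 2 other receptors, 3 ligands, 3 NF-kB genes), and the open diamond is Tnfrsf1b at 0.85, which was not tested.

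Of 18 other receptor genes of the superfamily 13 were tested, 1 was higher, 1 was lower and the median log2 fold change was -0.12. That was 15.4% of the 13, where 6.84% of all tested genes passed. Tnfrsf13c, which encodes the BAFF receptor, was higher at 1.69 to 2.68 against 0.871 to 1.43 CPM (log2 fold change 1.05, SE 0.26, edgeR adjusted p = 0.0267), at 27 to 105 reads per library. The 5 B cell markers (edgeR adjusted p 0.109 to 0.767) summed to 16.4 ± 7.38 CPM (SD, n = 6) against 10.7 ± 3.32 CPM (SD, n = 5), with a median log2 fold change of 0.60, and their part in the Tnfrsf13c difference was not tested. Tnfrsf26 was lower at 20.8 to 31.9 against 31.9 to 39.9 CPM, ranges that met at 31.9 CPM (log2 fold change -0.42, SE 0.12, edgeR adjusted p = 0.0468). Its exons share 107 bases with E230032D23Rik on the other strand, which had 5.54% of its count. Tnfrsf13c passed in 7 and Tnfrsf26 in 3 of the 11 fits that left out a library, and Tnfrsf13c did not pass without a filter on low counts (adjusted p = 0.0995).

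Downstream, none of 18 adaptor genes (TRAF proteins, death domain adaptors and ubiquitin enzymes of the receptor complexes) passed with edgeR, where 3 had an unadjusted p under 0.05, DESeq2 called 1 and limma-voom 2. Over all 17987 tested genes DESeq2 called 2333 and limma-voom 3426. The median log2 fold change of the adaptor genes was 0.11. Of 21 NF-kB pathway genes 2 were higher and 1 lower, with a median of 0.25. That was 14.3% of them, where 6.84% of all tested genes passed. An unadjusted edgeR p under 0.05 was found for 10 of the 21, against 4205 of all 17987 tested genes. Log2 fold changes were positive for 17 and negative for 4 of the 21, and positive for 8939 of all tested genes. Nfkb2, the precursor subunit of the alternative pathway that OX40 and similar receptors can engage, ran from 141 to 264 against 99.8 to 156 CPM (log2 fold change 0.63, SE 0.17, edgeR adjusted p = 0.0406). Nfkbib, which encodes the inhibitor IkB-beta, ran from 48.9 to 63.6 against 38.5 to 45.4 CPM (0.43, SE 0.09, adjusted p = 0.0111). Ikbkb, which encodes the kinase IKK-beta, was lower at 195 to 236 against 238 to 303 CPM (-0.32, SE 0.08, adjusted p = 0.0300).

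Of these, Nfkbib passed with each library left out, Ikbkb in 5 and Nfkb2 in 4 of the 11 fits. Nfkb2 did not pass under upper-quartile scaling (adjusted p = 0.0672) or without a filter on low counts (0.0589). Nfkbib shares 42 exonic bases with Sirt2 on the other strand, which had 101% of its count, and Nfkb2 shares 531 with AC114539.1 (12.1%). The 4 genes of receptor shedding, which the protease Adam17 carries out, had log2 fold changes of 0.23 to 0.48 and edgeR adjusted p of 0.0635 to 0.618. Of 10 T cell costimulatory and inhibitory receptors of other families, Icos (0.65, edgeR adjusted p = 0.00557), Slamf1 (0.76, adjusted p = 0.00936), Cd6 (0.46, adjusted p = 0.00570) and Cd5 (0.40, adjusted p = 0.0214) were higher, 0 were lower and the median was 0.43. That was 40% of the 10, where 6.84% of all tested genes passed. Icos, Slamf1 and Cd6 passed with each library left out, and Cd5 did not pass without wild-type replicate 1 (adjusted p = 0.0559) or 5 (0.0573).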

How the data were processed

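RNA-seq reads of 11 libraries (6 Atg5-deficient, 5 wild-type) were deposited as 1 table of raw read counts per Ensembl gene, with 0 columns of other samples. Per the submitters' processing notes, the authors used GRCm38, STAR and featureCounts, of unstated versions. For the annotation release, the strand setting and multimapping reads, nothing is given in the sources used here. IDs were matched to GENCODE M21 (52125 of 56748, 91.9%, holding 89.3% to 96.5% of the reads of a library), and promoter sequences come from RefSeq (GRCm38.p6).

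The labels give the genotypes; replicate numbers follow accession order. After filterByExpr (minimum count 10, total 15), libraries were scaled by TMM and genes tested in edgeR (glmQLFit with robust estimation and glmQLFTest, genotype as the only term), with Benjamini-Hochberg adjustment over 17987 genes. Summed markers, relative to total counts, were compared by exact permutation, and again on the TMM scale, an alternative added after seeing the data. The common biological coefficient of variation was 0.341, and replicate pairs gave a chi-square per degree of freedom of 12.9 to 165, where sampling noise alone gives about 1. Versions were edgeR 4.0.16, DESeq2 1.42.0 and limma 3.58.1 under R 4.3.3. The test was tested on simulated data of 17564 genes, where it recovered 26.9% of 67 genes changed 1.5-fold, 53.7% of 67 changed 2-fold and 66.7% of 66 changed 4-fold, with 10 false calls of 108.

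The receptors, the gene lists and the rule for named genes were chosen with earlier results of these data known, so no count over a list is independent evidence. The rule names all 10 receptors, the called genes of each list, the ligands of the receptors, the 5 genes most like Tnfrsf1b and called neighbours within 100 kb. Alternatives were 2 other scalings, DESeq2, limma-voom, no and a strict filter on low counts, 2 marker covariates, a run of consecutive library numbers and each library left out.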

Additional observations from a re-analysis of the deposited data

Results flagged for a closer look

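Of 56 groups checked (28 genes in 2 genotypes), 2 held a library far from the others, where chance alone marks about 1 in 20 groups. Tnf stood at 38.8 CPM in Atg5-deficient replicate 1, while the nearest other library of that group held 29.7 CPM. Without that library the log2 fold change of Tnf was 0.48, and it still passed edgeR's test. Tnfsf9 stood at 0.968 CPM in wild-type replicate 5, and the nearest other wild-type library held 2.67 CPM. Its log2 fold change was 0.60 without that library.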

How the results depend on the processing

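No paired analysis was possible because the labels give no replicate numbers and accession order pairs nothing. Of 17987 genes 1231 passed, against 2333 with DESeq2, 3426 with limma-voom, 26 with the regulatory T cell marker covariate, 1 with the naive marker covariate, 176 in the 8 libraries with consecutive title numbers (5 Atg5-deficient, 3 wild-type) and 642 (without Atg5-deficient replicate 2) to 2143 (without replicate 3) with 1 library left out. Called receptors went from 3 to 0 with either covariate and in the 8 libraries, where Tnfrsf4 (0.97, edgeR adjusted p = 0.0884), Tnfrsf18 (0.75, 0.0555) and Tnfrsf25 (0.44, 0.134) had log2 fold changes like those in all libraries. With 1 library left out, 0 to 3 receptors, 0 to 3 other receptors, 1 to 3 ligands, 1 to 5 NF-kB genes, 0 to 1 adaptors and 3 to 6 costimulatory receptors of other families passed. The other receptors went from 2 to 1 without a filter on low counts, the NF-kB genes from 3 to 6 with DESeq2 and 7 with limma-voom, the adaptors from 0 to 1 and 2, and the costimulatory receptors from 4 to 7 and 8. Each of the lists had 0 calls with either covariate and in the 8 libraries. The cause of these changes was not tested. The fits on the 8 libraries and with 1 library left out also rest on fewer libraries. Of the called genes 64.7% were higher, against 46.0% under upper-quartile scaling, which moved the median log2 fold change of all genes to -0.07. On the TMM scale, chosen after seeing the data, the difference of the summed regulatory T cell markers went from 464 to 447 CPM, that of the naive markers from -1474 to -1525 CPM and that of the cycling-cell markers from 318 to 313 CPM, and all of these passed there. Tnfrsf8 had the fewest reads of the receptors, 84 to 493 per library, and Tnfrsf9 the largest SE.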

Other observations

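The genes whose levels followed Tnfrsf1b most closely were sought among 8222 genes of at least 10 CPM, by the correlation of log2 CPM after removing the genotype means, over the 11 libraries. The highest were Penk (Pearson r = 0.957), which encodes proenkephalin, Spry1 (0.919), which encodes a feedback inhibitor of growth factor signalling, N4bp1 (0.918), Icos (0.912) and Itgb8 (0.906), which encodes an integrin chain. These are ranks out of many genes in few libraries and are given as a description without a test. Penk averaged 45.8 CPM in the Atg5-deficient and 19.4 CPM in the wild-type group (edgeR adjusted p = 0.175), and N4bp1 at 111 against 78.8 CPM (adjusted p = 0.0135).

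Of 38 tested genes within 100 kb of a described receptor, Acot7 near Tnfrsf25 (log2 fold change 0.88), Gapdh (0.66) and Ncapd2 (0.45) near Cd27 were higher, and 9430015G10Rik near Tnfrsf4 and Tnfrsf18 (-0.44) and Pank4 near Tnfrsf14 (-0.39) were lower. That was 13.2% of the neighbours, where 6.84% of all tested genes passed in either direction, and the median was 0.02. Sdf4, which lies 233 bases from Tnfrsf4, had a log2 fold change of 0.24 (edgeR adjusted p = 0.0774).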
